A study of Mus musculus with 5 samples.

Results

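The heat shock proteins and their co-chaperones were followed in regulatory T cells (Tregs) sorted from adipose tissue and lymph nodes (LN) of mice. They were taken as every protein-coding gene whose mouse symbol begins with Hspa, Hspb, Hspd, Hspe, Hsph, Hsp90 or Dnaj, together with Bag1 to Bag6, Hsf1 and Hsf2. This rule, which used symbols and no measured value, gave 82 genes of 49927 gene IDs in the tables. Of these, 44 were above 0 in all 5 libraries, 26 in some and 12 in none. RNA was sequenced from 5 groups of C57BL/6 mice, with 1 library each. The adipose libraries came from 10-month Med23fl/fl;Foxp3Cre mice (labelled Med23 KO), 10-month Foxp3Cre mice, 4-month obese Foxp3Cre mice (HFD in the title) and 4-month Foxp3Cre mice called lean here because their labels name no obesity. The LN library came from 4-month Foxp3Cre mice. All 5 groups thus carry Foxp3Cre, a Cre recombinase expressed with the Treg transcription factor gene Foxp3, and the Med23 alleles are floxed in 1 of them. The sources used here do not give the number of mice per library, the feeding time or the sorting gate.

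Heat shock proteins are molecular chaperones that hold, fold or disentangle other proteins. HSP70 proteins bind exposed stretches of a client in cycles of ATP use. J proteins (Dnaj genes) deliver clients to HSP70 and start its ATP use, and HSP110 and BAG proteins release the nucleotide. HSP90 takes over partly folded clients such as kinases and steroid receptors, and small heat shock proteins hold unfolded proteins without ATP. Under heat or other protein-damaging stress the factor HSF1 binds heat shock elements, inverted repeats of GAA, and switches on a cytosolic set led by Hspa1a and Hspa1b. The endoplasmic reticulum (ER) and mitochondria have chaperones of their own, and the ER set answers to the unfolded protein response through ER stress elements (ERSE).

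Promoters of 8 members are shown as examples of the motifs, and were chosen among the members whose window holds one: 5 cytosolic genes that were highest in lean adipose, 1 mitochondrial gene and 2 ER genes. The sequences are the 250 bases before the annotated start site, from RefSeq on build GRCm38.p6. Capitals mark an inverted pair of GAA repeats (GAANNTTC or TTCNNGAA) in the first 5, a run of 3 or more such repeats in Hspe1 and the ERSE letters (CCAAT and CCACG, 9 bases apart) on either strand in Hspa5 and Hsp90b1. The windows lie at chr17:34972157-34972406, minus strand for Hspa1a, chr17:34959239-34959488, minus strand for Hspa1b, chr5:149636316-149636565, minus strand for Hsph1, chr5:135887669-135887918, plus strand for Hspb1, chr9:54699309-54699558, plus strand for Dnaja4, chr1:55087898-55088147, plus strand for Hspe1, chr2:34771840-34772089, plus strand for Hspa5 and chr10:86705445-86705694, minus strand for Hsp90b1.
Hspa1a: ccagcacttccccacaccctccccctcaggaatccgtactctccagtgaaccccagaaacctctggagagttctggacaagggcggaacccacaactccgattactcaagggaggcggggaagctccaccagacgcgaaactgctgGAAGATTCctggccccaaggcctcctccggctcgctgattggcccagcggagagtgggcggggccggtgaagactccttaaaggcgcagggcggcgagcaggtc
Hspa1b: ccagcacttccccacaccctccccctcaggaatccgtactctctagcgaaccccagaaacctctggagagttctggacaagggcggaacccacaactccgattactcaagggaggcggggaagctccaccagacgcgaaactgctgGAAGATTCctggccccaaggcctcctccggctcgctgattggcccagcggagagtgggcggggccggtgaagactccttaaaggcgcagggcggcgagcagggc
Hsph1: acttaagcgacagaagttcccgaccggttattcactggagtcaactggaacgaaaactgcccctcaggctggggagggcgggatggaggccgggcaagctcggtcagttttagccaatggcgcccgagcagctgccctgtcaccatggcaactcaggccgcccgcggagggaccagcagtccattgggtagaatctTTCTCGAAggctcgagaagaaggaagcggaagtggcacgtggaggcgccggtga
Hspb1: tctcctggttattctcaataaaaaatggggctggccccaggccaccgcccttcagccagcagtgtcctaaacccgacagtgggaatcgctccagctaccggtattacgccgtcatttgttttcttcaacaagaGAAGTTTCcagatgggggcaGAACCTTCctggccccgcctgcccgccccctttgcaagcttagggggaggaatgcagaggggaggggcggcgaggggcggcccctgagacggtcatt
Dnaja4: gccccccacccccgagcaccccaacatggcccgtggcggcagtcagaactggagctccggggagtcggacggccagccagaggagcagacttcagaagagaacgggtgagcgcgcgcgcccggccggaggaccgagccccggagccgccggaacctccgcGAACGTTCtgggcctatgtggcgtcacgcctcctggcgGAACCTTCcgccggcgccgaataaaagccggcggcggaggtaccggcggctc
Hspe1: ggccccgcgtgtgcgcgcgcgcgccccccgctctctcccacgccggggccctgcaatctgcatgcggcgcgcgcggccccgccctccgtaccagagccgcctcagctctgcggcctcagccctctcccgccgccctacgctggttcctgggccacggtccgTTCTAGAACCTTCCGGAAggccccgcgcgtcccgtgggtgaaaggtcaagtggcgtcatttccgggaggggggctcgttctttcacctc
Hspa5: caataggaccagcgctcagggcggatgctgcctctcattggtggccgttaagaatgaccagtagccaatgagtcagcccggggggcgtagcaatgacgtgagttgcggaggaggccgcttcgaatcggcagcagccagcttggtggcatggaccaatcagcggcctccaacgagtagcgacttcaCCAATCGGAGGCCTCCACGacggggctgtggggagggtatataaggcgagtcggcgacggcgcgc
Hsp90b1: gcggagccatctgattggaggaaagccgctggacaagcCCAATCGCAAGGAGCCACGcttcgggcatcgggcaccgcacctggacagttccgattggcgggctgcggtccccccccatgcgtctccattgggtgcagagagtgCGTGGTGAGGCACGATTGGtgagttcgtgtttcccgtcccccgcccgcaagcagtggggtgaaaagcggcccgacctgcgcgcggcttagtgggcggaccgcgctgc

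The Hspa1a and Hspa1b windows differed at 3 of 250 bases and held the same pair 104 bases before the start. Of the 82 members, 66 had an entry in the promoter table. A GAA pair was found in 14 of these 66 members (21.2%), against 3932 of 27025 genes (14.5%). The triple repeat (GAA, TTC and GAA, or TTC, GAA and TTC, each 2 bases from the next, which contains pairs) was found in 3 members, Dnajb6, Hspd1 and Hspe1 (4.55%), against 139 of all genes (0.514%). Hspd1 and Hspe1 are neighbours that start in opposite directions, and their promoter windows overlap. Their triple repeats are the same stretch of DNA, which is thus counted for both genes. The ERSE letters were found in Dnajc3, Hsp90b1 and Hspa5, also 4.55% of members, against 35 of all genes (0.13%). Both strands were searched. A match is a run of letters and was not set against binding, and the windows of Bag3 and Dnajb1, which were also highest in lean adipose, held no pair. Hsp90aa1, Hspa8 and Hsp90ab1, highest there in CPM too, were not among the 14 members with a pair either. A member with no promoter entry could not show one.

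**Figure D1:**
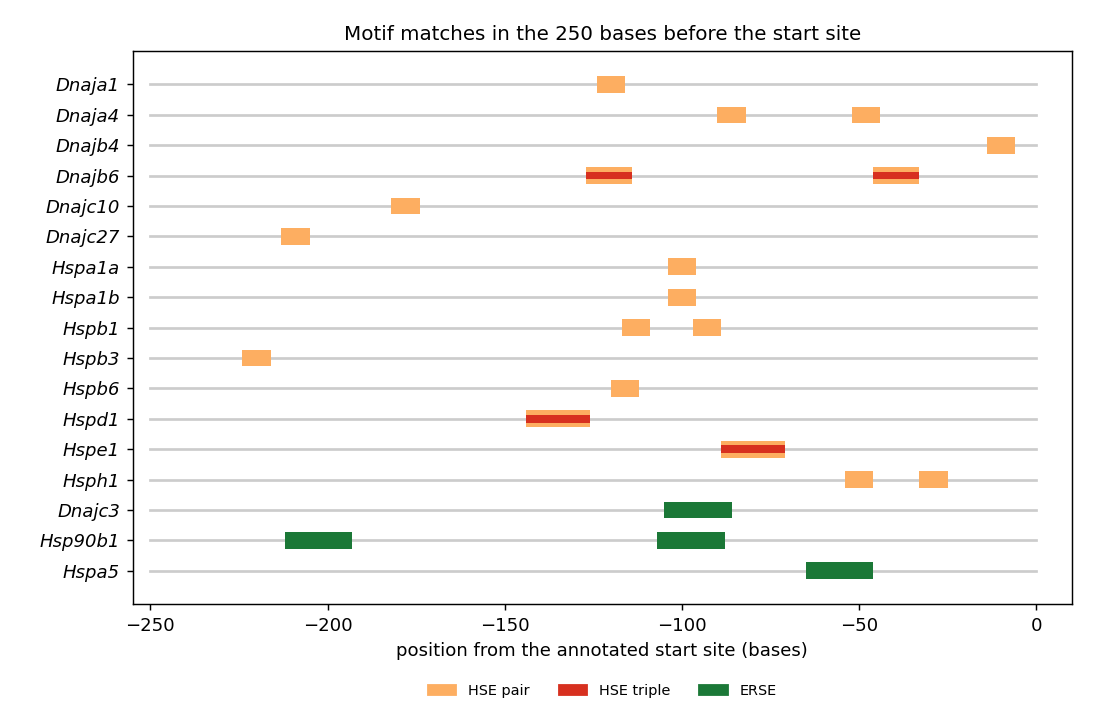
Position of each match, in bases from the annotated start site, in the promoter windows of the members that held one. Orange bars are GAA pairs, red bars runs of 3 repeats and green bars ERSE letters; where a gene has several annotated starts the matches of all are drawn. The matches of Hspa1a and Hspa1b lie at the same distance, 104 bases before the start.

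Values are the authors' scaled read counts, and the listed reads behind them numbered 4595046 to 9694474 per library. A scaled count under 1 is listed as 0, which stands for fewer than 6 to 10 reads. With 1 library per group and no replicate, the spread between mice is unknown and no test was made. Parentheses after a fold hold its 95% counting interval, which covers counting error only. Levels given for all 5 libraries are the scaled counts as deposited, in 3 tables of 2 libraries. Comparisons between tables use CPM, the same reads scaled to an equal total in every library.

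The libraries differed in ways the groups do not name. Med23 itself was 1.98-fold higher (1.39 to 2.84) in the library labelled Med23 KO, at 13.9 scaled counts against 7.02 in 10-month Foxp3Cre. It had 31.4 scaled counts in obese adipose, 44.6 in lean adipose and 6.71 in LN. A count over the whole gene does not show which exons gave the reads. The Med23 level of the library labelled Med23 KO thus does not bear out its label, and the directions of that library rest on the label alone. Xist, which coats the inactive X chromosome, had 541 scaled counts in that library, 489 in 10-month Foxp3Cre, 3.39 in obese adipose, 0 in lean adipose and 239 in LN. Gapdh, a glycolytic gene, had 492 scaled counts in that library, 709 in 10-month Foxp3Cre, 10.05 in obese adipose, 1.0025 in lean adipose and 1028 in LN. Ddx3y, a Y-linked gene, had 529 scaled counts in obese adipose, 532 in lean adipose and 0 in LN, and no value in the 10-month table. The 4-month adipose libraries thus stand apart from the LN library in sex-linked genes and in Gapdh, and the part of this in their ratios over LN was not tested. Class counts and the main single-gene ratios over LN are therefore also given for 10-month Foxp3Cre adipose. All 8 Treg and T cell markers, Foxp3 among them, were above 0 in all 5 libraries. Markers of other cells varied too. Of 12 macrophage and dendritic cell markers, 12 were above 0 in obese adipose, 10 in lean adipose and 1 in LN, with summed levels of 4912 CPM in obese adipose, 891 CPM in lean adipose and 7.01 CPM in LN. In the 10-month libraries they summed to 108 CPM in the library labelled Med23 KO and 658 CPM in Foxp3Cre. Of 9 fibroblast and mesothelial markers, 0 were above 0 in the library labelled Med23 KO, 2 in 10-month Foxp3Cre (48.9 CPM), 4 in obese adipose (14.7 CPM), 6 in lean adipose (982 CPM, most of it Dcn) and 1 in LN (8.56 CPM). Their part in the results below was not tested.

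The Treg library from lean adipose tissue held the largest share of heat shock RNA. In such bulk samples, fewer cells of a type and less RNA per cell cannot be told apart. All 82 members together took 0.720% of listed reads in the library labelled Med23 KO (95% interval 0.713 to 0.728), 0.842% in 10-month Foxp3Cre (0.836 to 0.847), 0.847% in obese adipose (0.841 to 0.854), 1.40% in lean adipose (1.396 to 1.411) and 0.588% in LN (0.583 to 0.593). Without Hspa1a and Hspa1b, left out after the data were seen because they are near-identical copies, the shares were 0.717% in the library labelled Med23 KO, 0.837% in 10-month Foxp3Cre, 0.773% in obese adipose, 1.18% in lean adipose and 0.588% in LN. Lean adipose thus still had the highest share and LN the lowest. In CPM per kilobase, with all annotated exon bases of a gene as its length, Hspa8 ranked first among members in the library labelled Med23 KO (219.5). It also did so in 10-month Foxp3Cre (295) and in obese adipose (338). In lean adipose Hspa1b led at 681 CPM per kilobase, ahead of Hspa8 at 450.4. In LN Hspe1 led at 209.8, ahead of Hspa8 at 193. These ranks depend on that length. By CPM alone Dnaja1 was above Hspa8 in the library labelled Med23 KO (988 against 944), 10-month Foxp3Cre (1688 against 1268) and lean adipose (2115 against 1937). Hspa8 was above Dnaja1 in obese adipose (1454 against 920) and in LN (832 against 648).

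By number of genes, the share of members that were higher over LN lay above that of all genes in lean and 10-month adipose and below it in obese adipose, and the share that were lower lay below it in all 3, with no test of these differences. Of 64 members measured in lean adipose over LN, 27 were at least 2-fold higher (42.2%, against 37.6% of all measured genes) and 16 at least 2-fold lower (25%, against 32.1%). Their median log2 ratio was 0.34, against 0.14 for all genes. In obese adipose over LN, 22 of 68 were higher (32.4%, against 41.8% of all genes) and 7 lower (10.3%, against 23.7%), with a median of 0.36 against 0.44. Centring on the median of all genes turned this split into 16 higher and 16 lower. The split of all 14713 measured genes moved with it, from 6144 higher and 3484 lower to 4612 and 4615. In 10-month Foxp3Cre adipose over LN, 24 of 65 were higher (36.9%, against 34.7%) and 12 lower (18.5%, against 29%), with a median of 0.49 against 0.12. These 3 comparisons share the LN library. A gene at 1 or more against 0 passes 2-fold by construction, among members and all genes alike. LN stood at 0 for 9 of the 27 higher members in lean, 13 of the 22 in obese and 11 of the 24 in 10-month adipose. The adipose library stood at 0 for 5 of the 16 lower members in lean, 0 of the 7 in obese and 3 of the 12 in 10-month adipose. Counts near the background are no result about the members. Of the 69 members above 1 CPM in some library and present in all tables, 24 had their highest CPM in lean adipose (34.8%, against 20.4% of all such genes) and 5 in obese adipose (7.25%, against 20.2%).

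**Figure D2:**
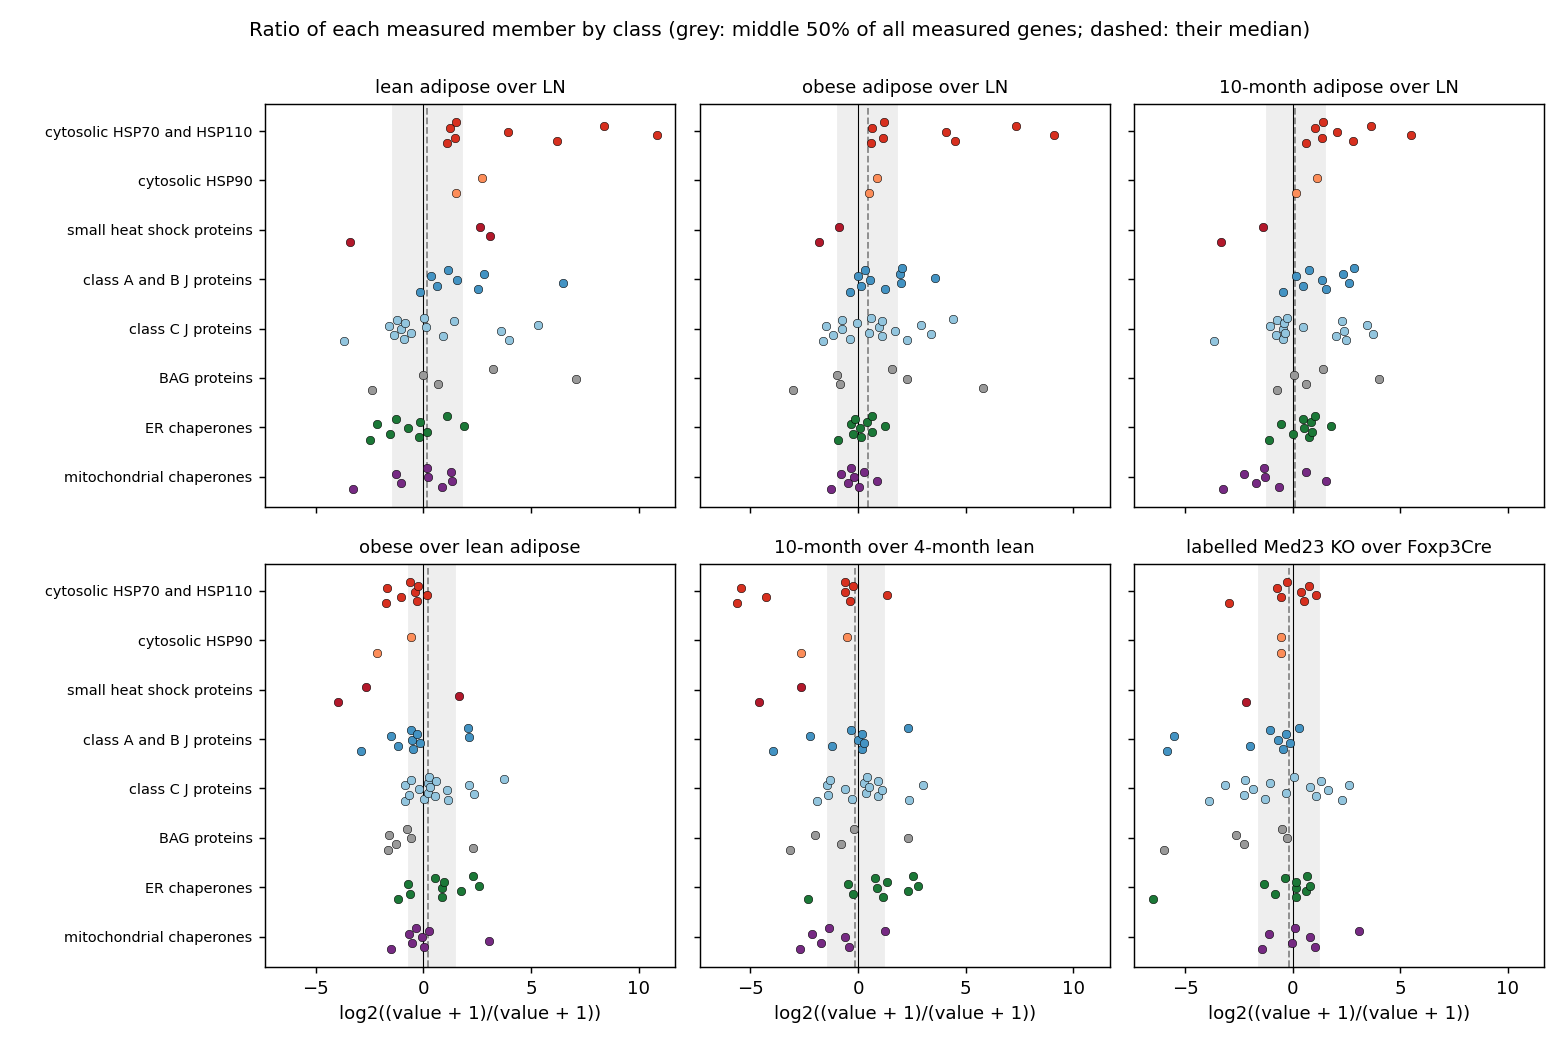
Log2 ratio of every measured member, with a pseudocount of 1, in 6 comparisons (panels), by class (rows); the first 3 classes and the J proteins are cytosolic or nuclear for the most part. The grey band holds the middle 50% of all measured genes and the dashed line their median. The cytosolic HSP70 and HSP110 genes lie to the right in all 3 panels over LN, while the ER and mitochondrial genes spread on both sides.

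The inducible cytosolic HSP70 genes had the largest ratios of all members in lean and in obese adipose over LN. Hspa1b (ENSMUSG00000090877), a stress-inducible HSP70, had scaled counts of 32.5 in the library labelled Med23 KO, 48.4 in 10-month Foxp3Cre, 544 in obese, 1815 in lean adipose and 0 in LN Tregs. Its twin Hspa1a (ENSMUSG00000091971) had scaled counts of 0 in the library labelled Med23 KO, 6.67 in 10-month Foxp3Cre, 160.2 in obese, 330.0 in lean adipose and 0 in LN Tregs. The authors' deposited table lists a log2 fold change of 11.83 for Hspa1b and 9.37 for Hspa1a in lean adipose over LN. These values correspond to the 0.5 that stands for no reads, so neither gene had a read in the LN library among 9694474. Set against a floor of 3 reads, Hspa1b was at least 5587-fold higher in lean and at least 1660-fold higher in obese adipose than in LN, and Hspa1a at least 1016-fold and 488-fold higher. In 10-month Foxp3Cre adipose Hspa1b had 43.6 CPM and Hspa1a 6.01 CPM, where both were listed at 0 in LN. The genes share sequence: 62.3% of the 50-base windows of Hspa1b are found in Hspa1a as well, so how reads were divided between the pair is uncertain.

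Hsph1 and its relatives, the HSP110 proteins that release nucleotide from HSP70, were also higher in adipose Tregs. Hsph1 (ENSMUSG00000029657) had scaled counts of 73.2 in the library labelled Med23 KO, 56.5 in 10-month Foxp3Cre, 295 in obese, 953 in lean adipose and 12.02 in LN Tregs. It was 79.3-fold higher (65.7 to 96.5) in lean and 24.3-fold higher (20.1 to 29.7) in obese adipose than in LN. In 10-month Foxp3Cre adipose, at 50.9 CPM against 11.4 CPM in LN, it was 4.44-fold higher (3.61 to 5.51). None of its 50-base windows was found in another gene. Hspa4 had scaled counts of 245 in the library labelled Med23 KO, 297 in 10-month Foxp3Cre, 245 in obese, 299 in lean adipose and 106 in LN Tregs. Hspa4l, another HSP110, had scaled counts of 141 in the library labelled Med23 KO, 81.5 in 10-month Foxp3Cre, 84.4 in obese, 106 in lean adipose and 36.5 in LN Tregs. In lean adipose over LN these were 2.81-fold higher (2.61 to 3.03) and 2.897-fold higher (2.56 to 3.29), with all 4 adipose libraries above LN for both. In 10-month Foxp3Cre adipose over LN, Hspa4 was 2.64-fold higher (2.46 to 2.85) and Hspa4l 2.11-fold higher (1.85 to 2.41).

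The constitutive HSP70 Hspa8, which serves unstressed cells, varied less. It had scaled counts of 849 in the library labelled Med23 KO, 1407 in 10-month Foxp3Cre, 1369.5 in obese, 1843 in lean adipose and 873 in LN Tregs, and was 2.11-fold higher (2.06 to 2.17) in lean and 1.55-fold higher (1.51 to 1.599) in obese adipose than in LN. It was 1.52-fold higher (1.48 to 1.57) in 10-month Foxp3Cre adipose. Of the 50-base windows of Hspa8, 38.6% are found in another gene as well. Hspa2, best known from male germ cells, had scaled counts of 18.8 in the library labelled Med23 KO, 12.5 in 10-month Foxp3Cre, 15.7 in obese, 14.04 in lean adipose and 0 in LN Tregs. Hspa14, a ribosome-associated HSP70, had 59.2 scaled counts in obese, 91.8 in lean adipose and 38.2 in LN and was not in the 10-month table. In the class as a whole, 8 of 8 measured members were higher by 2-fold or more in lean adipose, 6 of 8 in obese adipose and 7 of 8 in 10-month Foxp3Cre adipose, each over LN, and none was 2-fold lower. Of all measured genes 37.6% were 2-fold higher in lean, 41.8% in obese and 34.7% in 10-month Foxp3Cre adipose. The 8 members were not the same throughout. At 10 months Hspa14 was missing, and Hspa12a counted as higher at 1.55 CPM (15 reads) against a value set to 0 in LN. The near-identical Hspa1a and Hspa1b count as 2 genes. The summed share of reads of the class was 0.152% in the library labelled Med23 KO, 0.172% in 10-month Foxp3Cre, 0.294% in obese adipose, 0.573% in lean adipose and 0.102% in LN.

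**Figure D3:**
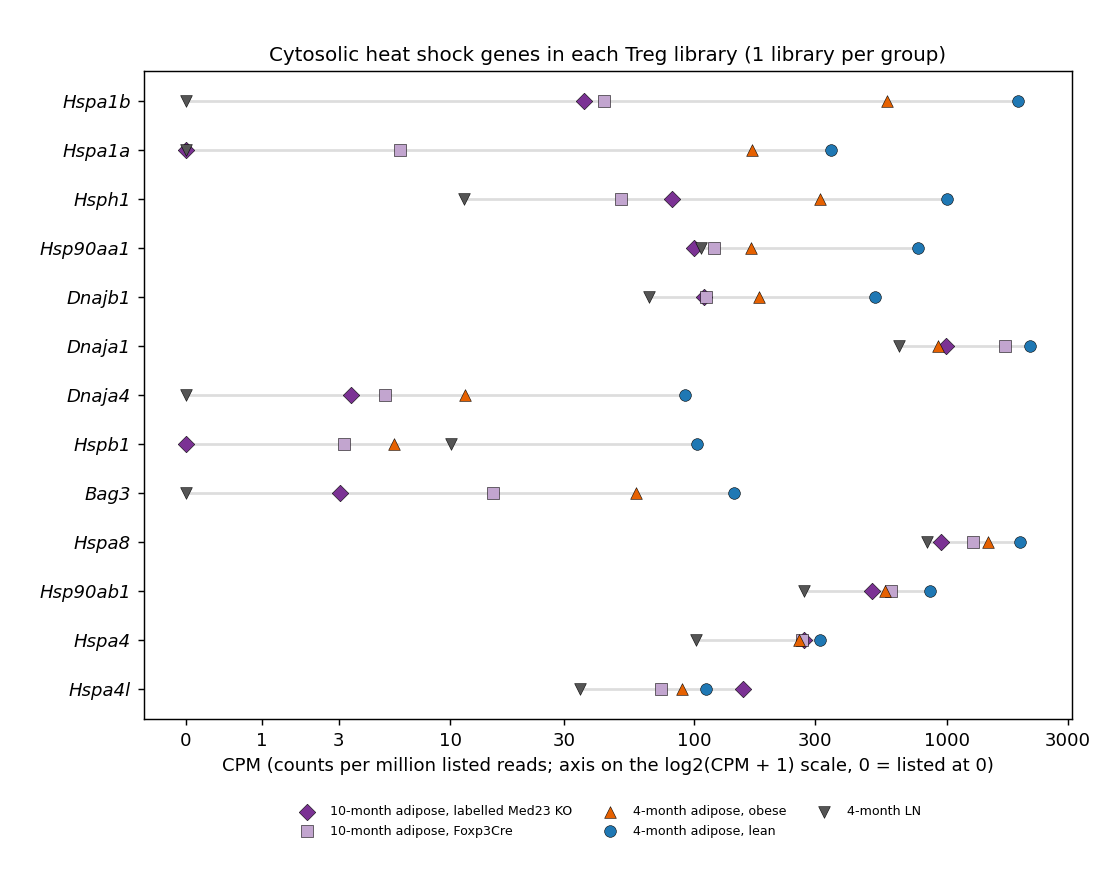
Level of 13 cytosolic members in each library, in CPM on a log2(CPM + 1) axis; each symbol is 1 library and grey lines join the lowest and highest. Lean adipose (blue circles) is rightmost for 12 of the 13 genes, and Hspa1b, Hspa1a, Dnaja4 and Bag3 are listed at 0 in LN.

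Of the cytosolic HSP90 genes, the inducible one had the larger ratio in lean adipose over LN. Hsp90aa1, the stress-inducible cytosolic HSP90, had scaled counts of 89.2 in the library labelled Med23 KO, 132 in 10-month Foxp3Cre, 159 in obese, 729 in lean adipose and 111 in LN Tregs. It was 6.57-fold higher (6.15 to 7.02) in lean adipose than in LN, against 1.41-fold higher (1.3004 to 1.54) in obese and 1.13-fold higher (1.04 to 1.23) in 10-month Foxp3Cre adipose (119 CPM against 106 CPM in LN). Reads of Hsp90aa1 can also come from its pseudogenes, since 47.5% of its 50-base windows lie in another gene. The constitutive Hsp90ab1 had scaled counts of 455 in the library labelled Med23 KO, 665 in 10-month Foxp3Cre, 538 in obese, 811 in lean adipose and 286 in LN Tregs, and was 2.83-fold higher (2.71 to 2.96) in lean, 1.86-fold higher (1.77 to 1.95) in obese and 2.197-fold higher (2.098 to 2.301) in 10-month Foxp3Cre adipose than in LN.

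Class A and B J proteins are the partners of cytosolic HSP70. Over LN, 5 of 8 measured members were higher in lean, 5 of 10 in obese and 5 of 9 in 10-month Foxp3Cre adipose (37.6%, 41.8% and 34.7% of all genes). None was 2-fold lower. The obese count lay near the share of all genes and is no result about the class. It includes Dnaja4, Dnajb5 and Dnajb7, which were listed at 0 in LN and so passed 2-fold by construction. Dnaja1 was 1.26-fold and Dnajb6 1.48-fold higher in obese adipose than in LN. Dnaja1, the main class A partner of HSP70, had scaled counts of 888 in the library labelled Med23 KO, 1874 in 10-month Foxp3Cre, 866 in obese, 2012 in lean adipose and 680.3 in LN Tregs. Dnajb1, which is induced with Hspa1a, had scaled counts of 98.03 in the library labelled Med23 KO, 124 in 10-month Foxp3Cre, 169 in obese, 494 in lean adipose and 69.4 in LN Tregs. Lean adipose was highest for both, at 2.96-fold higher (2.87 to 3.04) and 7.11-fold higher (6.55 to 7.74) than LN, and in 10-month Foxp3Cre adipose they were 2.605-fold higher (2.53 to 2.68) and 1.68-fold higher (1.52 to 1.86). Dnaja4, another inducible class A member, had scaled counts of 3.13 in the library labelled Med23 KO, 5.64 in 10-month Foxp3Cre, 10.9 in obese, 87.5 in lean adipose and 0 in LN Tregs. By the authors' deposited table the LN value stands for 2 reads, and lean adipose was then 404-fold higher (111.6 to 3344). Dnajb6, which keeps aggregation-prone proteins soluble, had scaled counts of 589 in the library labelled Med23 KO, 474 in 10-month Foxp3Cre, 228 in obese, 337 in lean adipose and 153 in LN Tregs. Here both 10-month libraries were above lean adipose in scaled counts.

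Dnajb2, a J protein that also binds ubiquitin, fell outside the rule for naming and was singled out after its values were seen. It had scaled counts of 34.05 in the library labelled Med23 KO, 46.4 in 10-month Foxp3Cre, 22.99 in obese, 35.3 in lean adipose and 5.197 in LN Tregs, and was 6.79-fold higher (5.003 to 9.41) in lean, 4.38-fold higher (3.17 to 6.15) in obese and 8.43-fold higher (6.24 to 11.6) in 10-month Foxp3Cre adipose than in LN. All 4 adipose libraries were above LN. Dnaja2, Dnajb4 and Dnajb13 were within 2-fold of LN in lean, obese and 10-month Foxp3Cre adipose. Dnaja2 had scaled counts of 59.1 in the library labelled Med23 KO, 235 in 10-month Foxp3Cre, 156 in obese, 178 in lean adipose and 199 in LN Tregs. Dnajb4 had scaled counts of 0 in the library labelled Med23 KO, 45.3 in 10-month Foxp3Cre, 66.1 in obese, 92.6 in lean adipose and 58.8 in LN Tregs. Dnajb13, a sperm-axoneme J protein, had scaled counts of 0 in the library labelled Med23 KO, 56.5 in 10-month Foxp3Cre, 38.2 in obese, 47.8 in lean adipose and 37.9 in LN Tregs. Dnajb4 and Dnajb13 were listed at 0 in the library labelled Med23 KO alone, where the authors' deposited fold changes stand for 1 and no reads.

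Among the BAG proteins Bag3 had the largest ratio over LN. Of 5 measured in lean adipose 2 were higher and 1 lower (37.6% and 32.1% of all genes). Of 6 in obese adipose 3 were higher and 1 lower (41.8% and 23.7%), and of 5 in 10-month Foxp3Cre adipose 2 and 0 (34.7% and 29%). Counts this small and near those shares are no result about the class. Bag3, which couples HSP70 to selective autophagy and is induced by HSF1, had scaled counts of 2.74 in the library labelled Med23 KO, 16.9 in 10-month Foxp3Cre, 55.3 in obese, 136 in lean adipose and 0 in LN Tregs. As for Hspa1a, the authors' deposited table shows no read in LN, so lean adipose was at least 419-fold and obese adipose at least 169-fold higher. Bag6, a factor in membrane protein quality control, had scaled counts of 27.4 in the library labelled Med23 KO, 33.2 in 10-month Foxp3Cre, 35.8 in obese, 116 in lean adipose and 11.4 in LN Tregs, and was 10.2-fold higher (8.35 to 12.6) in lean and 2.76-fold higher (2.204 to 3.49) in 10-month Foxp3Cre adipose than in LN. Bag1, a nucleotide exchange factor, had scaled counts of 11.7 in the library labelled Med23 KO, 79.2 in 10-month Foxp3Cre, 69.8 in obese, 120.1 in lean adipose and 123 in LN Tregs. Bag5 had scaled counts of 0 in the library labelled Med23 KO, 62.8 in 10-month Foxp3Cre, 6.28 in obese, 10.03 in lean adipose and 56.8 in LN Tregs, and was 5.67-fold lower (4.53 to 7.17) in lean and 9.14-fold lower (6.83 to 12.5) in obese adipose than in LN. It was 1.04-fold higher (0.925 to 1.18) in 10-month Foxp3Cre adipose, an interval that includes no difference. Bag4 had scaled counts of 34.8 in the library labelled Med23 KO, 50.03 in 10-month Foxp3Cre, 15.3 in obese, 48.8 in lean adipose and 30.4 in LN Tregs. Bag1 and Bag5 were lowest in the library labelled Med23 KO. Bag2 had 3.77 scaled counts in obese adipose, was listed at 0 in LN beside it and had no value in the other libraries.

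Among the 7 small heat shock proteins under the rule, Hspb1 was the one with sizeable counts. Hspb1, which holds unfolded proteins and is induced by HSF1, had scaled counts of 0 in the library labelled Med23 KO, 3.57 in 10-month Foxp3Cre, 5.28 in obese, 97.1 in lean adipose and 10.6 in LN Tregs. It was 9.15-fold higher (7.42 to 11.4) in lean adipose than in LN but 2.03-fold lower (1.401 to 2.99) in obese adipose, and 10-month Foxp3Cre adipose, at 3.21 CPM against 10.1 CPM in LN, was 3.15-fold lower (2.08 to 4.88). Of its 50-base windows 48.8% lie in the pseudogene Hsp25-ps1. Hspb6 had 2.01 scaled counts in obese adipose, was listed at 0 in lean adipose, had 9.64 in LN and had no value at 10 months. Hspb7 had 5.12 scaled counts in lean adipose and was above 0 in no other library, and Hspb2, Hspb3, Hspb8 and Hspb9 were above 0 in no library. Fibroblast markers were also higher in lean adipose (982 CPM against 8.56 CPM in LN), and their part in the Hspb1 value was not tested.

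Hsf1, the gene of the main heat shock factor, was lower in lean adipose than in LN, and Hsf2 was nearly equal. Hsf1 had scaled counts of 36.98 in the library labelled Med23 KO, 35.7 in 10-month Foxp3Cre, 25 in obese, 13.6 in lean adipose and 30.3 in LN Tregs, and was 2.23-fold lower (1.797 to 2.78) in lean and 1.22-fold lower (1.02 to 1.48) in obese adipose than in LN. It was 1.11-fold higher (0.943 to 1.31) in 10-month Foxp3Cre adipose, an interval that includes no difference. Hsf2 had scaled counts of 7.04 in the library labelled Med23 KO, 34.2 in 10-month Foxp3Cre, 2.64 in obese, 35.98 in lean adipose and 35.9 in LN Tregs. Obese adipose was 13.8-fold lower (8.85 to 22.5) and 10-month Foxp3Cre adipose 1.11-fold lower (0.949 to 1.31) than LN for Hsf2, the 10-month interval again including no difference. As background, HSF1 is regulated mainly as a protein, by trimer formation and modification.

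The ER chaperones took their smallest share of reads in lean adipose. Of 10 members, 2 were higher and 4 lower by 2-fold or more in lean adipose over LN (37.6% and 32.1% of all genes), with a median log2 ratio of -0.46. In obese adipose 1 was higher and none lower (41.8% and 23.7% of all genes), and in 10-month Foxp3Cre adipose 2 were higher and 1 lower (34.7% and 29%), both over LN. Their summed share of reads was 0.154% in the library labelled Med23 KO, 0.168% in 10-month Foxp3Cre, 0.133% in obese adipose, 0.0912% in lean adipose and 0.110% in LN. Hspa5 (ENSMUSG00000026864), the ER HSP70 also called BiP, had scaled counts of 540.0 in the library labelled Med23 KO, 948 in 10-month Foxp3Cre, 567 in obese, 318 in lean adipose and 523 in LN Tregs. Lean adipose was 1.65-fold lower (1.57 to 1.72) than LN, while obese adipose was 1.07-fold higher (1.03 to 1.12) and 10-month Foxp3Cre adipose 1.71-fold higher (1.65 to 1.78). Hsp90b1, the ER HSP90, had scaled counts of 311 in the library labelled Med23 KO, 281 in 10-month Foxp3Cre, 231 in obese, 129 in lean adipose and 145 in LN Tregs.

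Among the ER J proteins, lean adipose was lowest for some and near the top for others. Dnajb9, a BiP partner, had scaled counts of 148 in the library labelled Med23 KO, 94.1 in 10-month Foxp3Cre, 52.8 in obese, 15.5 in lean adipose and 47.6 in LN Tregs, and was 3.08-fold lower (2.54 to 3.75) in lean but 1.87-fold higher (1.66 to 2.102) in 10-month Foxp3Cre adipose than in LN. Dnajb11, another BiP partner, had scaled counts of 0 in the library labelled Med23 KO, 88.7 in 10-month Foxp3Cre, 52.4 in obese, 10.1 in lean adipose and 60.4 in LN Tregs, and was 5.96-fold lower (4.77 to 7.52) in lean but 1.39-fold higher (1.24 to 1.55) in 10-month Foxp3Cre adipose than in LN. In the library labelled Med23 KO the authors' deposited fold change stands for 3 reads of Dnajb11, and that library was 151-fold lower than Foxp3Cre (51.5 to 734). Dnajc3 had scaled counts of 95.1 in the library labelled Med23 KO, 123 in 10-month Foxp3Cre, 86.6 in obese, 144 in lean adipose and 167 in LN Tregs. Dnajc1 had scaled counts of 50.7 in the library labelled Med23 KO, 130.4 in 10-month Foxp3Cre, 94.5 in obese, 64.9 in lean adipose and 58.8 in LN Tregs. For Dnajc3 LN was highest in scaled counts, and for Dnajc1 10-month Foxp3Cre. Dnajb12 and Dnajb14, both ER membrane proteins, differed in direction in lean adipose, Dnajb12 5.46-fold lower (3.66 to 8.42) and Dnajb14 3.895-fold higher (3.25 to 4.695) than LN. In 10-month Foxp3Cre adipose Dnajb12 was 1.45-fold higher (1.19 to 1.79) and Dnajb14 3.59-fold higher (2.99 to 4.33) than in LN.

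**Figure D4:**
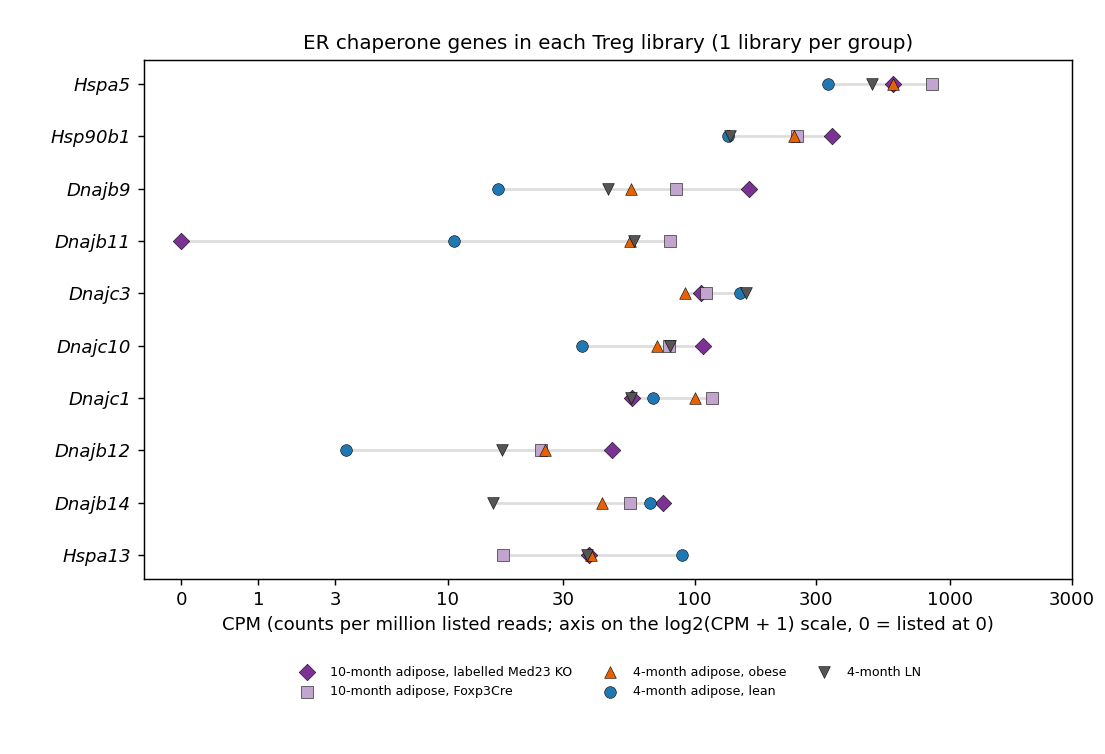
Level of the 10 ER chaperone genes in each library, in CPM on a log2(CPM + 1) axis; each symbol is 1 library and grey lines join the lowest and highest. Lean adipose (blue circles) is leftmost for Hspa5, Hsp90b1, Dnajb9, Dnajc10 and Dnajb12, and rightmost for Hspa13.

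**Figure D5:**
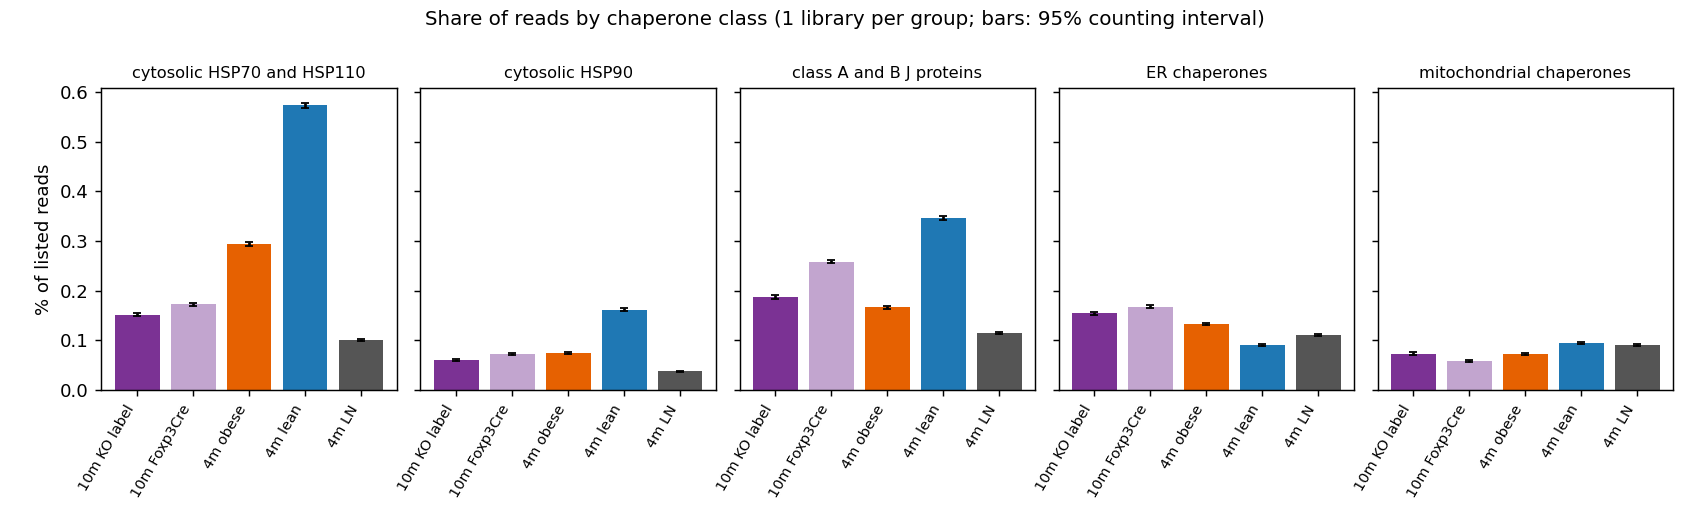
Share of listed reads taken by 5 chaperone classes in each library, in percent, with 95% counting intervals that cover counting error only. Cytosolic HSP70 and HSP110 reach 0.573% in lean adipose against 0.102% in LN, whereas the ER share is lowest in lean adipose at 0.0912%.

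Mitochondrial chaperones showed no common direction over LN, with 2 of 8 higher and 3 lower in lean adipose, 0 and 1 in obese adipose, and 1 and 5 in 10-month Foxp3Cre adipose. The shares of all genes higher and lower were 37.6% and 32.1% in lean, 41.8% and 23.7% in obese, and 34.7% and 29% in 10-month Foxp3Cre adipose. Hspd1 and Hspe1, the mitochondrial chaperonin and its lid, share a promoter region but did not move alike. Hspd1 had scaled counts of 168 in the library labelled Med23 KO, 172 in 10-month Foxp3Cre, 131 in obese, 195 in lean adipose and 106 in LN Tregs. Hspe1 had scaled counts of 147 in the library labelled Med23 KO, 135 in 10-month Foxp3Cre, 235 in obese, 379.8 in lean adipose and 325 in LN Tregs. Hspd1 was 1.83-fold higher (1.69 to 1.98) and Hspe1 1.17-fold higher (1.11 to 1.23) in lean adipose than in LN, and in 10-month Foxp3Cre adipose over LN Hspd1 was 1.53-fold higher (1.41 to 1.66) while Hspe1 was 2.53-fold lower (2.37 to 2.71). Hspd1 shares 39.7% of its 50-base windows with other genes. Hspa9, the mitochondrial HSP70, had scaled counts of 80.6 in the library labelled Med23 KO, 218 in 10-month Foxp3Cre, 73.6 in obese, 79.3 in lean adipose and 70.3 in LN Tregs, highest in 10-month Foxp3Cre. Dnajc19, a subunit of the import motor, had scaled counts of 156 in the library labelled Med23 KO, 75.8 in 10-month Foxp3Cre, 101 in obese, 98.7 in lean adipose and 239 in LN Tregs. Dnajc15, its relative, had scaled counts of 71.6 in the library labelled Med23 KO, 40.6 in 10-month Foxp3Cre, 109 in obese, 91.7 in lean adipose and 190.2 in LN Tregs. Both were highest in LN. Dnajc11 had scaled counts of 31.3 in the library labelled Med23 KO, 2.88 in 10-month Foxp3Cre, 16.1 in obese, 21.2 in lean adipose and 8.23 in LN Tregs, highest in the library labelled Med23 KO. Dnajc30 had 6.91 scaled counts in obese adipose, was listed at 0 in lean adipose, had 8.77 in LN and had no value at 10 months.

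Class C J proteins, a mixed class with specialised roles, had 4 of 15 measured members higher and 5 lower in lean adipose over LN (37.6% and 32.1% of all genes). In obese adipose 7 of 17 were higher and 3 lower (41.8% and 23.7%), and in 10-month Foxp3Cre adipose 6 of 16 were higher and 2 lower (34.7% and 29%). Dnajc5, the cysteine string protein of vesicle release, had scaled counts of 142 in the library labelled Med23 KO, 44.2 in 10-month Foxp3Cre, 123 in obese, 105 in lean adipose and 55.1 in LN Tregs. Dnajc8, a splicing factor partner, had scaled counts of 58.5 in the library labelled Med23 KO, 276 in 10-month Foxp3Cre, 192 in obese, 169 in lean adipose and 317 in LN Tregs. Dnajc9, a histone chaperone, had scaled counts of 54.2 in the library labelled Med23 KO, 198 in 10-month Foxp3Cre, 77.8 in obese, 77.4 in lean adipose and 239.8 in LN Tregs, and was 3.098-fold lower (2.84 to 3.38) in lean, 3.11-fold lower (2.85 to 3.41) in obese and 1.28-fold lower (1.202 to 1.37) in 10-month Foxp3Cre adipose than in LN. Both Dnajc8 and Dnajc9 were highest in LN and lowest in the library labelled Med23 KO. Among those with low values, Dnajc27 had scaled counts of 58.5 in the library labelled Med23 KO, 11.04 in 10-month Foxp3Cre, 20.5 in obese, 38.5 in lean adipose and 0 in LN Tregs. Dnajc18 had scaled counts of 31.3 in the library labelled Med23 KO, 4.26 in 10-month Foxp3Cre, 6.53 in obese, 11.2 in lean adipose and 0 in LN Tregs. Both were listed at 0 in LN and highest in the library labelled Med23 KO. Dnajc25 had scaled counts of 0 in the library labelled Med23 KO, 13.8 in 10-month Foxp3Cre, 9.42 in obese, 14.6 in lean adipose and 0 in LN Tregs. Dnajc16 had scaled counts of 0 in the library labelled Med23 KO, 7.94 in 10-month Foxp3Cre, 3.14 in obese, 0 in lean adipose and 1.08 in LN Tregs, and Dnajc17 had 11.7 in obese adipose, 0 in lean adipose and 12.02 in LN and no value at 10 months. Hspbap1, a partner of HSPB1, had scaled counts of 16.6 in the library labelled Med23 KO, 6.096 in 10-month Foxp3Cre, 11.2 in obese, 0 in lean adipose and 15.9 in LN Tregs. The remaining 34 members did not reach the rule for naming: 12 were above 0 in no library, and the highest values of the other 22 lay between 1.13 scaled counts for Dnajc6 and 97.4 for Dnajc10.

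Obese was compared with lean adipose across 2 tables, so these values are in CPM. Of 69 measured members, 14 were higher by 2-fold or more in obese adipose (20.3%, against 34% of all genes) and 16 lower (23.2%, against 18.6%). Lean adipose stood at 0 for 10 of these 14 and obese adipose for 1 of these 16, which passed 2-fold by construction. The median log2 ratio of the members was -0.30, against 0.20 for all genes. The members that were lower included most of the inducible set. Hspa1b had 578 CPM in obese and 1908 CPM in lean adipose, 3.2996-fold lower (3.19 to 3.41). Hsph1 had 314 CPM in obese and 1002 CPM in lean adipose, 3.19-fold lower (3.05 to 3.34). Hspb1 had 5.603 CPM in obese and 102 CPM in lean adipose, 18.2-fold lower (13.4 to 25.5). Dnaja4 had 11.6 CPM in obese and 92.03 CPM in lean adipose, 7.93-fold lower (6.35 to 10.01). Hsp90aa1 was 4.55-fold lower (4.29 to 4.84) and Hspa8 1.33-fold lower (1.3001 to 1.36) in obese adipose. Hsf2 was 13.5-fold lower (8.68 to 22.1) in obese adipose. Of the ER chaperones 3 of 10 were higher and 1 lower, near the shares of all genes in this comparison (34% and 18.6%). Hspa5 had 602 CPM in obese and 334 CPM in lean adipose, 1.801-fold higher (1.72 to 1.89), and Dnajb11 was 5.22-fold higher (4.15 to 6.62). Macrophage markers were higher in obese adipose (4912 CPM against 891 CPM in lean) and fibroblast markers lower (14.7 CPM against 982 CPM), and their part was not tested.

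At 10 months the inducible set was lower than in lean adipose at 4 months. In 10-month Foxp3Cre over 4-month lean adipose, 14 of 63 measured members were at least 2-fold higher (22.2%, against 28.8% of all genes) and 20 lower (31.7%, against 32%), with a median log2 ratio of -0.33, against -0.14 for all genes. Lean adipose stood at 0 for 5 of these 14 and 10-month adipose for 1 of these 20, which passed 2-fold by construction. Hspa1a had 6.01 CPM in 10-month and 347 CPM in lean adipose, 57.7-fold lower (44.5 to 76.2), and Hspa1b had 43.6 CPM in 10-month and 1908 CPM in lean adipose, 43.7-fold lower (39.7 to 48.3). Hsph1 was 19.7-fold lower (17.97 to 21.6), Hspb1 31.8-fold lower (22.2 to 47.1), Dnaja4 18.1-fold lower (13.6 to 24.7) and Bag3 9.401-fold lower (7.92 to 11.2) at 10 months. Hsp90aa1 was 6.43-fold lower (6.04 to 6.85) and Dnajb1 4.66-fold lower (4.36 to 4.99). Dnaja1 differed less and had 1688 CPM at 10 months and 2115 CPM in lean adipose, 1.25-fold lower (1.23 to 1.28). Of the ER chaperones 5 of 10 were higher and 1 lower (28.8% and 32% of all genes), with Hspa5 at 854 CPM against 334 CPM in lean adipose, 2.55-fold higher (2.45 to 2.67), and Dnajb9 at 84.8 CPM against 16.3 CPM in lean adipose, 5.21-fold higher (4.35 to 6.28). Age cannot be told apart here from the difference in Xist, Ddx3y and Gapdh between these libraries. Fibroblast markers were also lower at 10 months (48.9 CPM against 982 CPM in lean adipose), as was the sum of macrophage markers (658 CPM against 891 CPM). Their part was not tested.

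The 9 members best known as HSF1 targets (Hspa1a, Hspa1b, Hsph1, Hsp90aa1, Dnajb1, Dnaja1, Dnaja4, Hspb1 and Bag3) were grouped after their values were seen. Lean adipose was highest for 9 of 9 in CPM, against 20.4% of all genes, but the choice of group makes this no test. Obese was above 10-month Foxp3Cre adipose for 8, and 10-month Foxp3Cre was above LN for 8, with no share of all genes counted for these orders. The 9 members summed to 1319.9 CPM in the library labelled Med23 KO, 2043 in 10-month Foxp3Cre, 2406 in obese adipose, 6994 in lean adipose and 842 in LN. Dnaja1 alone held 988 CPM of this in the library labelled Med23 KO, 1688 in 10-month Foxp3Cre, 920 in obese adipose, 2115 in lean adipose and 648 in LN. The nearness of the sums in 10-month Foxp3Cre and obese adipose thus rests on Dnaja1, the member that was higher at 10 months.

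The library labelled Med23 KO was compared with 10-month Foxp3Cre within 1 table, under the limit of the label given above. Mediator passes signals from transcription factors on to RNA polymerase II, and Med23 is one of its subunits. Of 62 measured members, 9 were at least 2-fold higher (14.5%, against 28.6% of all genes) and 21 lower (33.9%, against 34.9%), with a median log2 ratio of -0.32 against -0.15. Of these 21, 8 were listed at 0 in the library labelled Med23 KO and so passed 2-fold by construction. Rescaling both libraries to an equal total gave 15 higher and 17 lower, so 4 members lost their call as lower and 6 became higher. All 13549 measured genes then split into 4481 higher and 4222 lower. Dnaja1 was 2.11-fold lower (2.04 to 2.18), Hspa8 1.66-fold lower (1.601 to 1.72), Hspa5 1.75-fold lower (1.68 to 1.83) and Hspa9 2.71-fold lower (2.43 to 3.02) in the library labelled Med23 KO. On the equal-total scale Dnaja1 was 1.71-fold lower, so it no longer passed 2-fold, Hspa8 1.34-fold, Hspa5 1.42-fold and Hspa9 2.19-fold lower. As deposited, Bag1 was 6.75-fold lower (5.18 to 8.94), Dnajc8 4.72-fold lower (4.18 to 5.34) and Dnaja2 3.98-fold lower (3.53 to 4.51). Hsph1 was 1.296-fold higher (1.13 to 1.49) and Hsp90b1 1.11-fold higher (1.04 to 1.18), and Dnajc11 10.9-fold higher (7.11 to 17.3). Bag5 had 0 scaled counts in that library against 62.8 in Foxp3Cre, the deposited fold change standing for 1 read. Reads in the library labelled Med23 KO were fewer (4595046 against 9650769 in Foxp3Cre), and its erythroid markers summed to 8943 CPM against 1202 CPM in Foxp3Cre. Their part was not tested.

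Chaperone systems outside the rule were set beside the members. Of 14 chaperonin (CCT) and prefoldin genes, which fold actin and tubulin, 0 were 2-fold higher and 3 lower in lean adipose over LN (37.6% and 32.1% of all genes). In obese adipose 0 were higher and 3 lower (41.8% and 23.7%), and in 10-month Foxp3Cre adipose 0 and 4 (34.7% and 29%), both over LN. Cct8 stood at 155.7 scaled counts in lean adipose and 469 in LN. A list of 26 HSP90 and HSP70 partner proteins also held Trap1, Hyou1 and the small heat shock protein gene Cryab, which are chaperones themselves. Of the 26, 6 were higher and 12 lower in lean adipose over LN (37.6% and 32.1% of all genes), 5 and 7 in obese adipose (41.8% and 23.7%), and of 25 measured 2 and 9 in 10-month Foxp3Cre adipose (34.7% and 29%). Cryab, at 16.8 scaled counts in lean adipose and 0 in LN, was one of the 6. Ahsa1, which speeds the ATP use of HSP90, had scaled counts of 15.9 in lean adipose and 69.1 in LN. Unc45a, a myosin chaperone, was the other way, at 62.9 in lean adipose against 8.66 in LN. Of 10 measured HSF1 targets and regulators outside the rule, 6 were higher and 2 lower in lean adipose over LN (37.6% and 32.1% of all genes). In obese adipose 4 were higher and 3 lower, near the shares of all genes (41.8% and 23.7%). Of 11 measured in 10-month Foxp3Cre adipose, 5 were higher and 1 lower (34.7% and 29%). Hmox1, which breaks down haem, stood at 160.3 scaled counts in lean adipose and 3.79 in LN, and Sqstm1, an autophagy receptor, had 233 in lean adipose against 29.2 in LN. Ubb, a polyubiquitin gene that HSF1 induces, had 1290.1 in lean adipose against 3962 in LN.

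The immediate early genes, which switch on within minutes of stimulation, were counted as a second inducible set. Of 15 measured, 8 were higher and 2 lower in lean adipose over LN (37.6% and 32.1% of all genes). In obese adipose 9 were higher and 1 lower (41.8% and 23.7%), and in 10-month Foxp3Cre adipose 9 and 0 (34.7% and 29%), both over LN. Their summed level was 3467 CPM in the library labelled Med23 KO, 7494 in 10-month Foxp3Cre, 6283 in obese adipose, 5910 in lean adipose and 3329 in LN. The order differed from that of the heat shock set, since 10-month Foxp3Cre and not lean adipose was highest. Their part in the heat shock values was not tested.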

How the data were processed

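Tregs were sorted, RNA was extracted with Trizol and libraries were made with an Illumina TruSeq kit for a HiSeq2000 instrument, per the labels' protocols. Per the submitters' processing notes, TopHat2 2.0.9 and Bowtie2 2.0.6 were used, with build mm8. The sources used here do not give the counter, annotation, strand setting or normalization, and reads of overlapping genes, pseudogenes and near-identical copies may be divided in ways not known here.

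The authors deposited 3 tables of 2 libraries each, with a scaled read count per gene (a signal proportional to reads) and a log2 fold change. All deposited scaled counts above 0 (100%) were whole multiples, to within 0.01 read, of a step that differs between libraries, so reads could be recovered. Values under 1 are listed as 0. With low values dropped and 1 library per group, no count model was fitted and no test was made. Where 1 library was listed at 0, the authors' log2 fold change gave back a whole number of reads, or 0.5 for no reads, in 100% of such genes. Genes with no value in a table were set to 0 in comparisons between tables, since LN was listed at 0 in its other table for all 1644 and 2983 such IDs.

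Ratios are log2((value + 1)/(value + 1)), which understates low genes. A gene was measured at 1 or more in at least 1 library of a pair, and past the size threshold at 2-fold. Single-gene folds are ratios of listed values with an exact Clopper-Pearson 95% counting interval on recovered reads. The labels name no molecular identifiers, so several reads may come from 1 molecule and the intervals hold counting error alone. A fold against no reads used a floor of 3 reads per library. Symbols and exon lengths came from GENCODE M21 (49326 of 49927 IDs matched), and 14 pseudogenes with matching symbols were left out. Members, classes and lists were chosen with earlier results of these data known. Named in every library were members at 100 or more scaled counts, members at 5 or more and 8-fold apart in some comparison, and Hsf1, Hsf2, Hspa5, Hspa9, Hsp90b1 and Bag1 to Bag6, which gave 48 genes. Calculations used Python 3.11.15, pandas 2.3.3, numpy 2.4.6, matplotlib 3.10.9 and scipy 1.17.1, and were tested on simulated data. Alternatives were other pseudocounts and minimum values, centring, other scalings and leaving out Hspa1a and Hspa1b.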

Additional observations from a re-analysis of the deposited data

How the results depend on the processing

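With 1 library per group no replicate could be left out. No paired analysis was possible because each group holds 1 library and no test was made. Of 120 alternative values of the member counts and medians, 109 stayed near the main value in size and 11 moved. Changes of sign were not counted among them. Of 942 single-gene values 760 stayed, 182 moved and 0 were reversed. In obese adipose over LN, the median log2 ratio was 0.36 in the main setting and 0.14 with a minimum of 10 scaled counts. It changed sign to -0.080 after centring on all genes, and 16 members were then lower. Of all 14713 genes 4615 were then lower, against 3484 in the main setting. In obese over lean adipose, 7 members were higher with a pseudocount of 5 and 6 with a minimum of 10, and the centred median was -0.50. Genes of all kinds that were higher there numbered 5034 in the main setting, 2466 with that pseudocount and 2016 with that minimum. In the library labelled Med23 KO over Foxp3Cre, 4 were higher with a pseudocount of 5 and 15 after rescaling to an equal total, where the median was -0.023. Of all genes, 2515 and 4481 were higher under these settings, against 3877 in the main one. In 10-month over lean adipose 9 were higher with a minimum of 10, and in 10-month adipose over LN 7 were lower with a pseudocount of 5. The matching counts of all genes were 1929 and 2605, against 3946 and 3781 in the main setting. The stricter minimum tests fewer genes, and the larger pseudocount shrinks ratios of low genes; the cause of the other changes was not tested. Leaving out Hspa1a and Hspa1b, an alternative chosen after seeing the data, moved no count by over 1.5 times. A value under 1 is listed as 0, which limits low members to presence or absence.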
